A study of Mus musculus with 48 samples.

Results

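The genes described here carry glucose into T cells, break it down to pyruvate and lactate, feed pyruvate to the mitochondrion, or divert glucose-6-phosphate into the pentose phosphate pathway. They were chosen by name: 32 symbols were listed, and the start-site clusters of each symbol were summed. Of these, 31 were found among the 10967 genes named in either table, 28 of them in the hybridoma table (of 10098 genes) and 31 in the primary cell table (of 10219 genes). Tpi1, triosephosphate isomerase, was found in neither table, and Aldoc, Slc16a3 and Pfkfb3 were found only in primary cells. The rule used symbols alone.

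The levels came from cap analysis of gene expression, which reads the capped 5′ ends of transcripts, so a level in RPM, tags scaled to the library total, counts transcript starts and does not scale with transcript length. The first system was the DO11.10 T hybridoma, a single ovalbumin-reactive T cell line of BALB/c x AKR/J background, given 0, 1, 10, 100, 1000 or 10000 nM of the peptide pOVA. The second was primary CD4+ T cells of BALB/cCrSlc mice, given 0, 10, 100, 1000 or 10000 ng/ml of 2C11, an antibody to the CD3ε chain of the T cell receptor. Every dose was run without and with engagement of PD-1, an inhibitory receptor of T cells, which gave 12 hybridoma groups of 26 libraries and 10 primary cell groups of 22 libraries. Groups had 2 libraries each, except the groups at 10000, which had 3. How PD-1 was engaged, the time of harvest and whether the libraries of a group came from separate cultures or mice were not given, so p-values measure only the spread between these libraries. RNA was bulk, so fewer cells of a type and less RNA per cell cannot be told apart.

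Resting T cells take up little glucose and oxidise most of it. On stimulation through the T cell receptor they raise glucose uptake and turn much of it into lactate even when oxygen is plentiful, a switch known as aerobic glycolysis, while the pentose phosphate pathway supplies NADPH and the ribose of new nucleotides. PD-1 is known to dampen receptor signalling, and the transcription factors MYC and HIF-1 are known activators of many glycolytic genes.

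Upstream windows of 4 members are shown, chosen after their values were seen: Hk2 and Slc16a1 had the 2 largest rises in stimulated primary cells, Ldha was the most abundant member and rose, and Gpi1 fell. Each window is the 250 bases before a RefSeq transcript start in build GRCm38.p6, 5′ to 3′ on the gene's own strand, with every ACGTG on either strand in capitals (CACGT is the same motif on the other strand). ACGTG is the core that HIF-1 is known to bind, and it lies inside the E-box CACGTG, the site known for MYC. The windows are chr6:82774455-82774704 for Hk2 (minus strand), chr3:104638414-104638663 for Slc16a1 (plus strand), chr7:46845554-46845803 for Ldha (plus strand) and chr7:34230337-34230586 for Gpi1 (minus strand).
Hk2: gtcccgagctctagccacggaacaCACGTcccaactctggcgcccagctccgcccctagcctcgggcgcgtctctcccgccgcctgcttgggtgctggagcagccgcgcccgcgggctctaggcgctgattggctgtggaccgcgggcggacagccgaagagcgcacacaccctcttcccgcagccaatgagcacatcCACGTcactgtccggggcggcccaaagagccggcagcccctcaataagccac
Slc16a1: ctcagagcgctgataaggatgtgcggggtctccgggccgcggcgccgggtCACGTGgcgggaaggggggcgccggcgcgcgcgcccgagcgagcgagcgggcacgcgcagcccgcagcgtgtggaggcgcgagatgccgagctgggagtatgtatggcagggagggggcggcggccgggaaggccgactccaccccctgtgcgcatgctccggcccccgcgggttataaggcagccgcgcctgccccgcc
Ldha: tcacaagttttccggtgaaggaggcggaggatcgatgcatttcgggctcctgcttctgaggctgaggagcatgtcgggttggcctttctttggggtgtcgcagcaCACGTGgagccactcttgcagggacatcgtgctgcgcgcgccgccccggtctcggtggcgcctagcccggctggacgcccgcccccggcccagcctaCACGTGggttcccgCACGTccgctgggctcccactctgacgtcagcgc
Gpi1: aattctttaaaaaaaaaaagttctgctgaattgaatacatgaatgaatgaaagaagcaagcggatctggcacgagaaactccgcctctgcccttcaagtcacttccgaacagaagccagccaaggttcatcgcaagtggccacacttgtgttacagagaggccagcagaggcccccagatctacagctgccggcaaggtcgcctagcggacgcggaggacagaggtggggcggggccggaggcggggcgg

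The Hk2 window held 2 matches to ACGTG, the Slc16a1 window held an E-box, the Ldha window shown held 2 E-boxes, and the Gpi1 window held neither motif. Ldha had another window, not shown, that held neither motif. Over all 45 windows of members, ACGTG was found in 15 (33.3%), against 16.6% of the 32851 windows of all genes. CACGTG was found in 4 windows of members (8.89%), in Ldha, Pfkfb3, Pfkm and Slc16a1, against 6.02% of all. GGGCGG, the GC box, was found in 27 (60.0%), against 32.7% of all. The windows of all genes were not limited to genes measured here, and a gene with several windows counts once per window. The shares of members and of all are thus not from like sets, and their difference was not tested. Among members that rose in primary cells at the top dose, 8 of 17 had ACGTG in a window: Hk2, Ldha, Pfkfb3, Pgam1, Pkm2, Slc16a1, Slc16a3 and Slc2a1. It was in the windows of 0 of the 4 members that fell and had a window, and of 4 of the 9 members that passed in neither direction. These counts are of genes with the motif in any window. No like share of all genes is given, and the counts were not compared by a test. A match describes these letters only; it is neither a mapped site nor a measured cause. Start sites below are given in mm9 as deposited, a different build, and were not converted.

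Library totals ran from 7787111 to 19705152 tags in the hybridoma and from 4422505 to 22806043 in primary cells. The T cell markers were present: 11 of 13 in the hybridoma table, where Cd4 and Trat1 were not listed, and 13 of 13 in primary cells. Of 18 B lymphocyte and antigen-presenting cell markers, 17 were listed in the hybridoma and 14 in primary cells; of 13 myeloid markers only Cst3 was listed in each table, and of 8 erythroid markers none. In the hybridoma, the second libraries at 0 nM stood apart, with these markers summing to 1277 RPM without and 1056 RPM with engagement, against 115 to 329 RPM in the other 24 libraries. In stimulated primary cells the same sum was 610 to 987 RPM (median 767) without engagement and 661 to 1336 RPM (median 1152) with it, and 10 of the 14 markers were higher with engagement (4.48% of all genes). Its part in the results was not tested beyond a fit with this marker level as a covariate.

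In primary CD4+ T cells, 10000 ng/ml of 2C11 raised 17 of the 31 members and lowered 5, by limma with Benjamini-Hochberg adjusted p under 0.05. Over all 10217 genes tested, 27.5% were called higher and 40.1% lower. Members had a median log2 difference of 0.34, against −0.15 over all genes. The largest rises were in Hk2, Slc16a1, Pfkfb3, Pgam1, Prps1 and Ldha, and the largest fall was in Slc2a3. Log2 differences are on the log2(RPM + 1) scale and understate the change of low genes. When libraries were scaled by TMM factors (trimmed means of M values, which centre the bulk of genes on no change) in place of library totals, 21 members were higher and 4 lower (background 33.6% and 34%). All 17 rises and 4 of the 5 falls were called under library totals, TMM and quantile scaling alike (32.1% and 34.3% of all genes with quantile scaling), and the exception was Hk1. T cell markers also moved, with 1 of 13 higher and 10 lower.

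**Figure D1:**
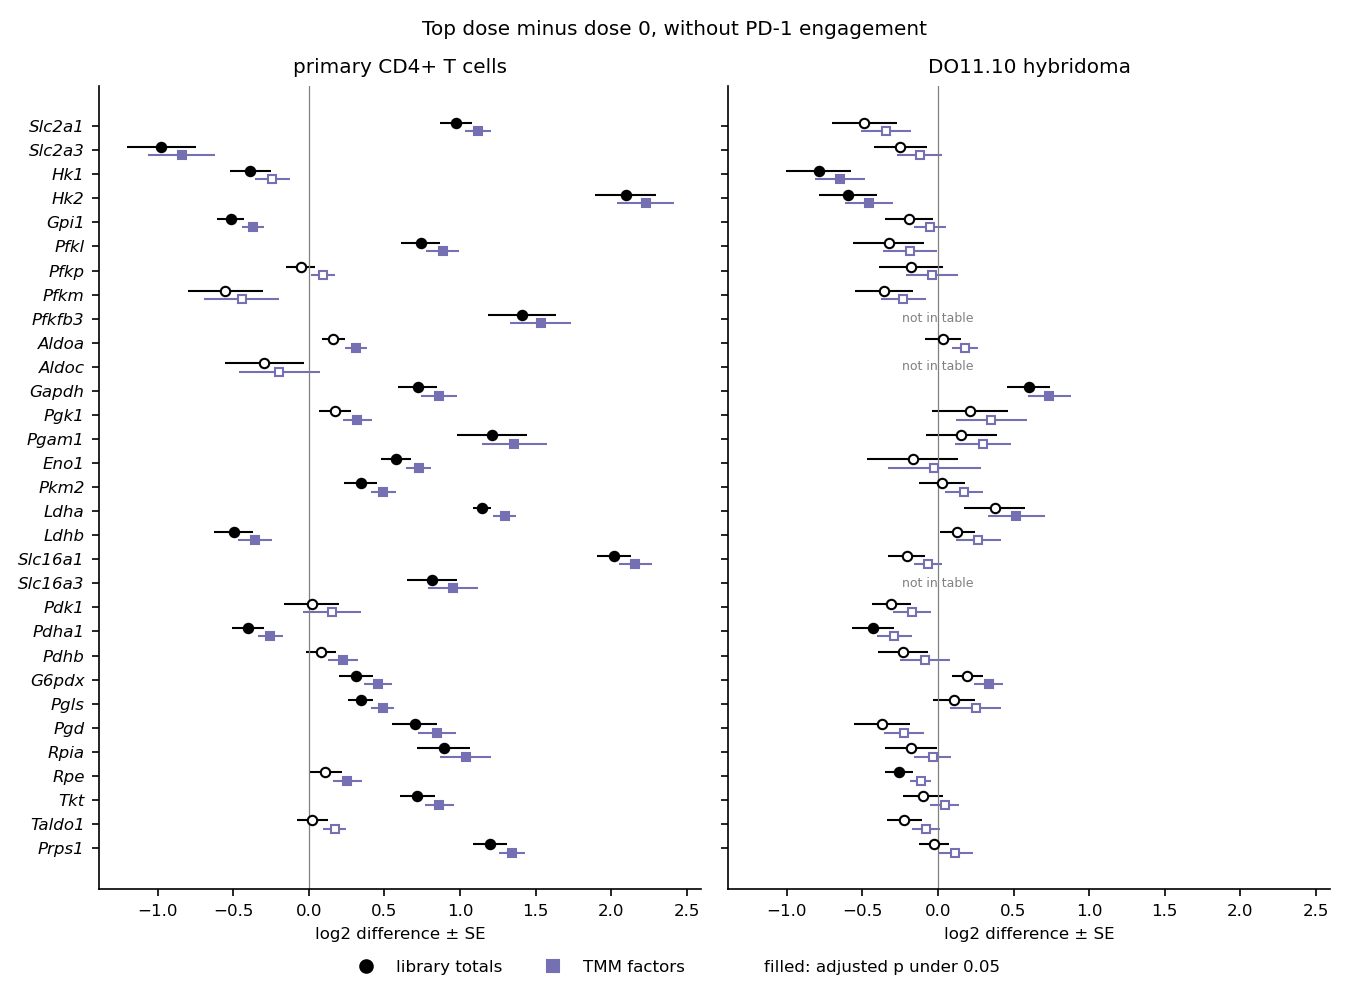
Log2 difference between 10000 and 0 of the stimulus without PD-1 engagement for each member (x axis, log2 of RPM + 1, bars are standard errors), in primary CD4+ T cells (left) and the hybridoma (right), with library totals (circles) and TMM factors (squares). Filled symbols passed adjusted p under 0.05: 17 members lie to the right and 5 to the left in primary cells, and 1 and 4 in the hybridoma, with library totals.

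Glucose enters through the transporters GLUT1 (Slc2a1) and GLUT3 (Slc2a3), and these moved in opposite directions at the top dose. Slc2a1 had 45.5 and 39.0 RPM at 0 ng/ml and 79.0, 85.3 and 86.9 RPM at 10000 ng/ml, a rise of 0.97 ± 0.10 (log2 ± SE, adjusted p = 1.13e-07). Slc2a3 went from 12.9 and 14.0 RPM to 7.34, 6.97 and 4.96 RPM, a log2 difference of -0.98 ± 0.23 (adjusted p = 0.000951). At 100 ng/ml Slc2a3 had 16.5 and 17.8 RPM, above both libraries at 0 ng/ml, though it was not called higher there with library totals or with TMM factors. The clusters of Slc2a3 lie at different places in the 2 tables, so its levels were not set side by side across systems.

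Hexokinases trap glucose as glucose-6-phosphate, and Hk2, the inducible form, gave the largest rise among members. Its levels were 4.57 and 5.39 RPM at 0 ng/ml and 26.9, 27.8 and 19.8 RPM at 10000 ng/ml, a log2 difference of 2.10 ± 0.20 (adjusted p = 2.46e-08). Hk1, the constitutive form, had 47.95 and 55.2 RPM and then 37.3, 44.2 and 36.2 RPM, a fall of 0.39 (SE 0.14, adjusted p = 0.0171). Without stimulus Hk1 stood well above Hk2 and at the top dose the Hk2 mean was still the lower of the pair. The Hk1 call was lost with TMM factors (adjusted p = 0.0695) and when any of 3 of the 5 libraries was left out. Gpi1, which converts glucose-6-phosphate to fructose-6-phosphate, fell by 0.52 (SE 0.089, adjusted p = 3.99e-05).

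Phosphofructokinase commits the sugar to glycolysis, and its liver-type subunit Pfkl rose by 0.74 ± 0.13 (adjusted p = 4.87e-05). At this dose the platelet-type subunit Pfkp did not pass (-0.053, adjusted p = 0.633). Nor did the muscle-type subunit Pfkm (-0.55, adjusted p = 0.0558), which lay near the lower limit of detection. Pfkp had 111 and 119 RPM at 0 ng/ml, 156 and 172 RPM at 100 ng/ml and 146 and 139 RPM at 1000 ng/ml. It was called higher at both of these lower doses, with library totals and with TMM factors. Pfkfb3 makes fructose-2,6-bisphosphate, the activator of phosphofructokinase. Its levels were 3.07 and 4.25 RPM at 0 ng/ml and 12.5, 12.01 and 9.61 RPM at 10000 ng/ml, a rise of 1.41 ± 0.22 (adjusted p = 1.65e-05). All 3 stimulated libraries of Pfkfb3 were above both unstimulated ones.

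In the later steps of glycolysis the rises were uneven. Pgam1, phosphoglycerate mutase, went from 71.1 and 73.9 RPM to 162, 191 and 157 RPM, a log2 difference of 1.21 ± 0.23 (adjusted p = 0.000147). Gapdh went from 23.4 and 23.9 RPM to 42.0, 43.1 and 34.1 RPM (0.72 ± 0.13, adjusted p = 6.65e-05). Eno1, enolase, rose by 0.58 ± 0.099 (adjusted p = 4.03e-05), and the groups of these 3 genes did not overlap. Groups this small can stand apart by chance, and the share of all genes whose groups did so is not given. The same limit holds wherever libraries of 1 group are said to lie apart from another, as for Pfkfb3, Ldha, Slc16a1, Prps1 and Hk2. Aldoa, aldolase, and Pgk1, phosphoglycerate kinase, did not pass at this dose (0.16 with adjusted p = 0.0732, and 0.17 with adjusted p = 0.163), though both were called with TMM factors. Aldoc stayed at 1 to 4 RPM and did not pass. Gapdh, Ldha, Pgk1, Eno1, Pgam1, Pkm2 and Aldoa have near-identical copies elsewhere in the mouse genome, and how multiply mapping tags were placed was not given in the sources used here, so their levels are uncertain; the Gapdh level is low for a gene that most cells express strongly.

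Pyruvate kinase and lactate dehydrogenase end the pathway, and monocarboxylate transporters export the lactate. Ldha, the subunit that favours lactate formation, was the most abundant member, with 580.0 and 583 RPM at 0 ng/ml and 1292, 1269 and 1304 RPM at 10000 ng/ml, a rise of 1.15 ± 0.059 (adjusted p = 3.54e-12). Ldhb, the subunit that favours the reverse reaction, fell by 0.50 (SE 0.13, adjusted p = 0.00238). Slc16a1 (MCT1) went from 13.5 and 14.5 RPM to 60.0, 57.7 and 61.4 RPM, a log2 difference of 2.02 ± 0.11 (adjusted p = 1.42e-11). In both Ldha and Slc16a1 every stimulated library was above every unstimulated one by more than the spread within either group. Slc16a3 (MCT4) rose by 0.81 ± 0.17 (adjusted p = 0.000242). Pkm2 had 400.3 and 398 RPM and then 490.2, 553 and 479.9 RPM (0.34 ± 0.11, adjusted p = 0.00956), a call that was lost without the second library at 0 ng/ml (adjusted p = 0.0507).

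Of the 3 members that act where pyruvate enters mitochondrial oxidation, 1 fell and the other 2 did not pass. Pdha1, the catalytic subunit of pyruvate dehydrogenase, fell by 0.40 (SE 0.11, adjusted p = 0.00248). Pdhb, its partner subunit, did not pass (0.081, adjusted p = 0.482) except with TMM factors, where it was higher. Pdk1, a kinase that switches the enzyme off, had 9.79 and 8.26 RPM at 0 ng/ml and 8.87, 9.21 and 9.31 RPM at 10000 ng/ml, groups that overlapped (adjusted p = 0.935).

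Of the 8 pentose phosphate members, 6 rose and 0 fell, beside 27.5% and 40.1% of all genes. In the oxidative arm, which makes NADPH, G6pdx had 39.7 and 37.9 RPM at 0 ng/ml and 47.5, 53.8 and 44.3 RPM at 10000 ng/ml (0.31 ± 0.11, adjusted p = 0.0200), and lost its call when any of 3 of the 5 libraries was left out. Pgls rose by 0.34 ± 0.085 (adjusted p = 0.00150) and Pgd by 0.70 ± 0.15 (adjusted p = 0.000407). In the non-oxidative arm, Tkt, transketolase, went from 146 and 159.7 RPM to 229, 276 and 249.7 RPM (0.72 ± 0.12, adjusted p = 1.99e-05), and Rpia, which forms ribose-5-phosphate, rose by 0.89 ± 0.18 (adjusted p = 0.000187). Rpe and Taldo1 did not pass (0.11 and 0.023). Prps1, which turns ribose-5-phosphate into the precursor of nucleotides, had 49.2 and 45.8 RPM and then 111, 123 and 97.7 RPM, a rise of 1.20 ± 0.11 (adjusted p = 1.25e-08) with no overlap between the groups.

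Members first passed the test at 100 ng/ml. At 10 ng/ml 0 of 31 members passed (0% of all genes in either direction; 3 members were at an unadjusted p under 0.05). At 100 ng/ml 16 were higher and 0 lower (19.2% and 7.21% of all genes), and at 1000 ng/ml 20 were higher and 4 lower (31.1% and 29.9%). The summed level of the 31 members followed the same course: 3199 ± 30.1 RPM (SD, n = 2) at 0, 2972 ± 157 (n = 2) at 10, 4174 ± 204 (n = 2) at 100, 4952 ± 117 (n = 2) at 1000 and 4596 ± 187 RPM (n = 3) at 10000 ng/ml. Such sums, here and below, weigh abundant members most. Ldha alone went from 580.0 and 583 RPM at 0 ng/ml to 1292, 1269 and 1304 RPM at 10000 ng/ml. The half-maximal dose, read on a log10 dose scale where the group means crossed the midpoint between 0 ng/ml and their highest value, was computed for the 6 members that rose at least 2-fold. It was 79.3 ng/ml for Pgam1, 118 for Ldha, 119 for Pfkfb3, 199.6 for Hk2, 210.0 for Prps1 and 218 for Slc16a1. These doses rest on means of 2 or 3 libraries, have no error estimate, and their order was not tested. That of Pgam1 uses its mean at 10 ng/ml, where the 2 libraries had 29.0 and 72.5 RPM.

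**Figure D2:**
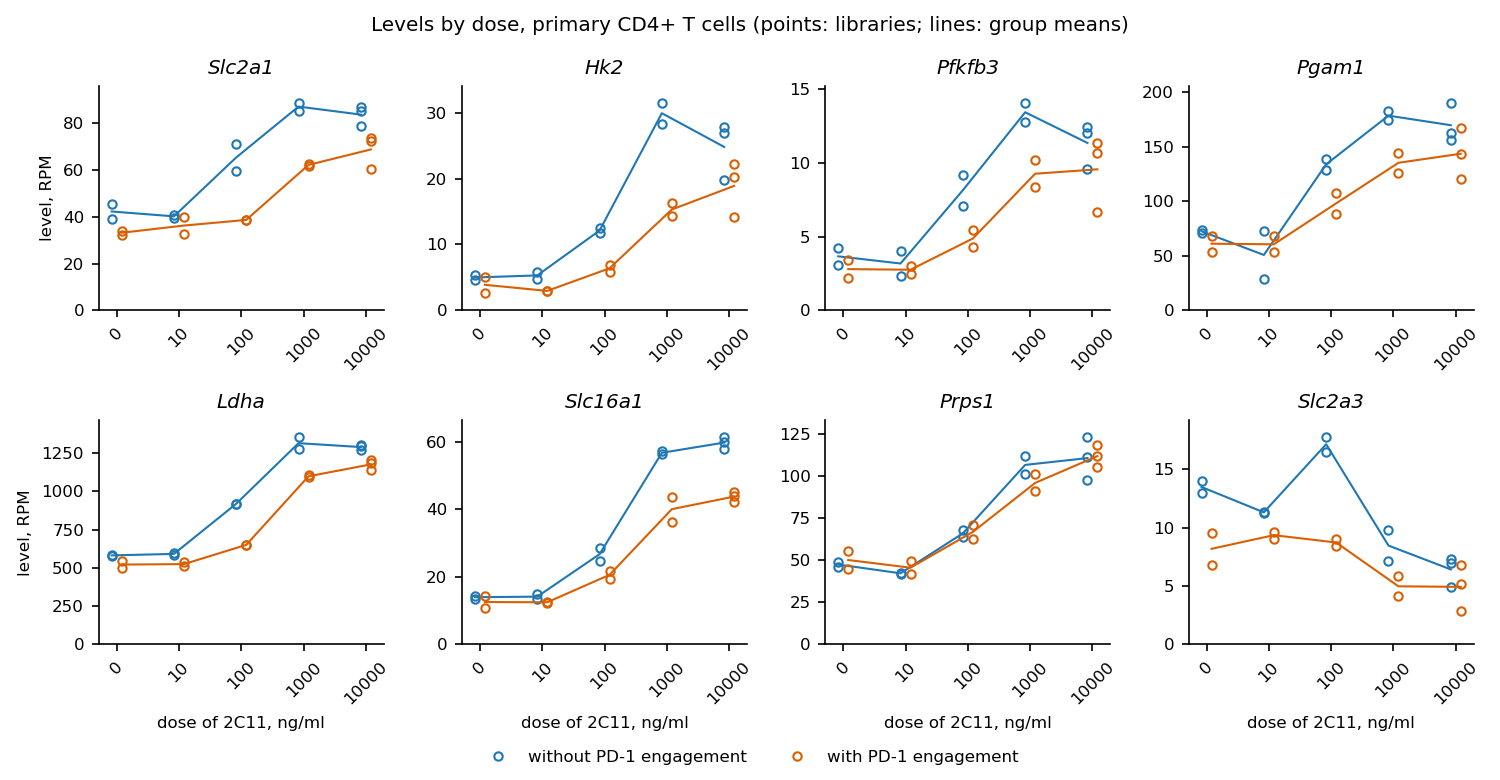
Levels of 8 members in primary CD4+ T cells (y axis, RPM) against the dose of 2C11 (x axis, ng/ml), without (blue) and with (orange) PD-1 engagement; circles are libraries and lines join group means. Slc2a1, Hk2, Pfkfb3, Pgam1, Ldha, Slc16a1 and Prps1 climb above 10 ng/ml, and Slc2a3 declines at the top doses. The orange Hk2 circles lie below the blue ones at 100 and 1000 ng/ml, while the Prps1 colours overlap at every dose except 1000 ng/ml.

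PD-1 engagement lowered 20 of the 31 members in primary cells and raised 0, when engaged and unengaged libraries were compared within each dose above 0 and averaged over the 4 doses. Over all genes 41.2% were called lower and 4.48% higher, so the share of members called lower, though above that of all genes, has to be read against a table that leaned downward. The members' median was −0.27, against −0.14 over all genes. The lean depended on the scaling: with TMM factors 14 members were lower and 2 higher (background 14.9% and 14%), with medians of −0.13 and −0.012, and with quantile scaling 12 were lower and 4 higher (12.7% and 14.1%). Under all 3 scalings 11 members were lower: Aldoa, Eno1, Hk2, Ldha, Pfkl, Pfkp, Pkm2, Slc16a1, Slc16a3, Slc2a1 and Slc2a3. The share of all genes called lower under all 3 is not given and can be at most 12.7%. Of the 20, 19 were lower at each of the 4 doses, the exception being Rpia. The 20 were called on the mean of these same doses, so this is no separate support. The median over all genes was −0.13, −0.29, −0.17 and 0.020 at 10, 100, 1000 and 10000 ng/ml. The tags inside clusters made up 84.8% to 87.1% of the total in unengaged and 81.8% to 86.1% in engaged stimulated libraries, 8 of 13 T cell markers were lower, and 10 of 14 B lymphocyte and antigen-presenting cell markers were higher. With the level of the B cell markers as a covariate, 26 members were lower and 0 higher (46.5% and 3.16% of all genes). The stimulated unengaged libraries enter both this comparison and the one with stimulus. Their values are thus given side by side and were not related to each other, except in the percentages of the rise lost, given below.

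**Figure D3:**
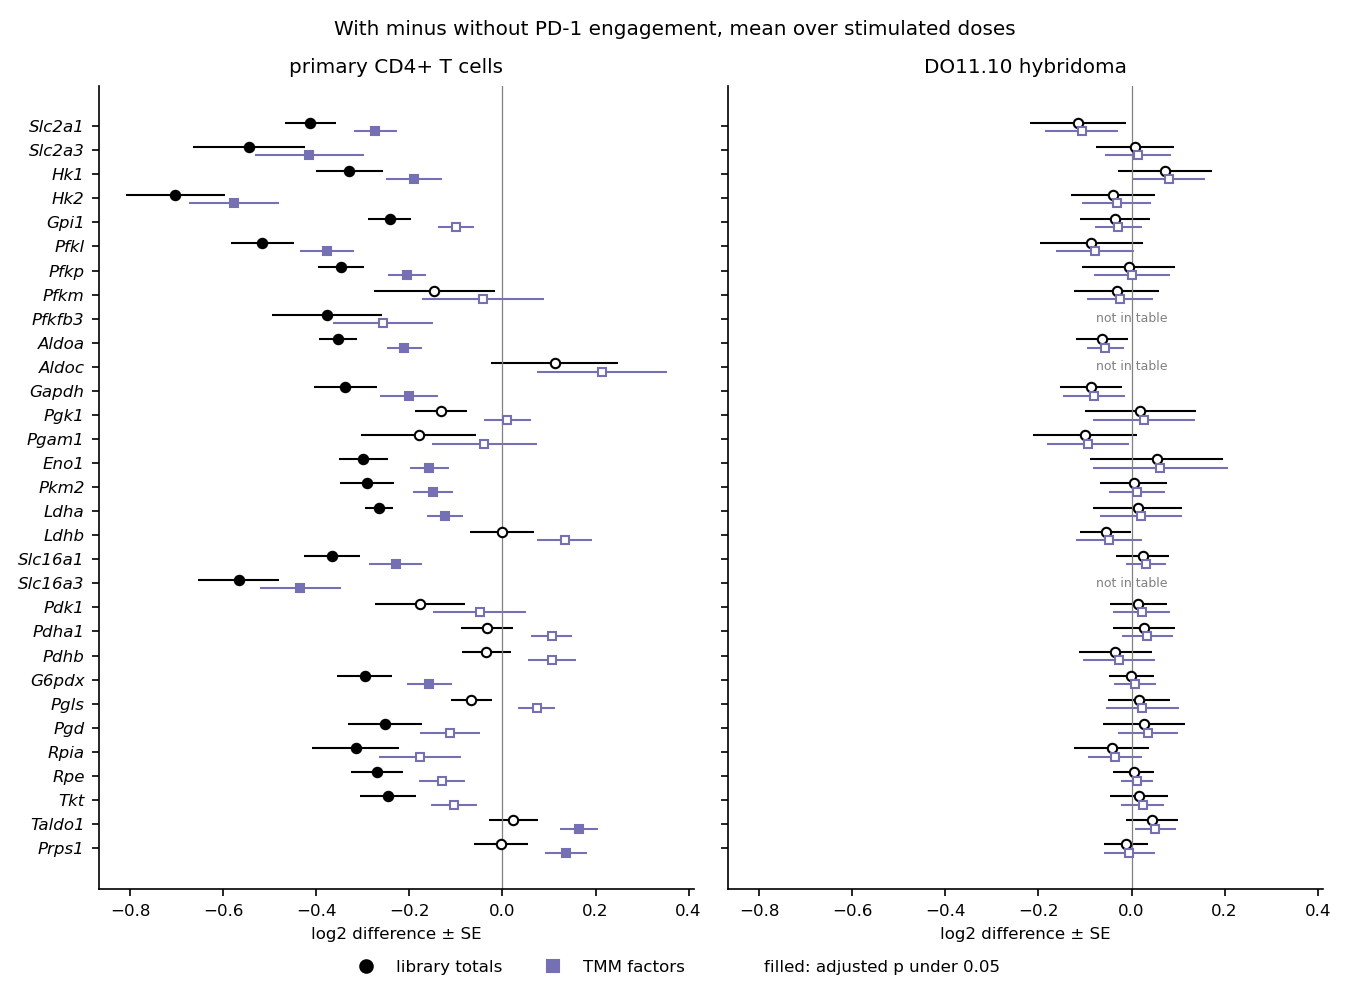
Difference between libraries with and without PD-1 engagement for each member (x axis, log2 of RPM + 1, mean over stimulated doses, bars are standard errors), in primary CD4+ T cells (left) and the hybridoma (right), with library totals (circles) and TMM factors (squares). Filled symbols passed adjusted p under 0.05: with library totals 20 members lie to the left in primary cells and 0 pass in the hybridoma, and TMM factors move every primary cell value to the right.

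The largest differences with engagement were in Hk2, Slc16a3, Slc2a3 and Pfkl, in that order, and no test compared the members with each other. Over the 9 unengaged stimulated libraries Hk2 ranged from 4.76 to 31.6 RPM (median 19.8), and over the 9 engaged ones from 2.93 to 22.2 RPM (median 14.2), a difference of -0.70 ± 0.11 (adjusted p = 6.33e-05). Slc2a1 ranged from 39.4 to 88.9 RPM (median 79.0) without and from 32.8 to 73.7 RPM (median 60.47) with engagement (-0.41 ± 0.055, adjusted p = 2.15e-05). Slc2a3 ranged from 4.96 to 17.8 RPM (median 9.80) without and from 2.85 to 9.64 RPM (median 6.77) with engagement (-0.54 ± 0.12, adjusted p = 0.00149). These ranges span the doses and so overlap; the differences are taken within doses. Hk1 ranged from 36.2 to 69.3 RPM (median 44.4) without and 27.6 to 47.0 RPM (median 37.8) with engagement (-0.33 ± 0.072, adjusted p = 0.00130). Gpi1 ranged from 165 to 250.2 RPM (median 203) without and 136 to 228 RPM (median 171) with engagement (-0.24 ± 0.047, adjusted p = 0.000486), a call not reached with TMM factors (adjusted p = 0.0614).

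At the commitment step, Pfkl ranged from 31.6 to 62.9 RPM (median 52.0) without and 20.3 to 48.5 RPM (median 39.2) with engagement (-0.52 ± 0.068, adjusted p = 2.01e-05). Pfkp ranged from 91.4 to 172 RPM (median 119) without and 84.5 to 108 RPM (median 100.3) with engagement (-0.35 ± 0.050, adjusted p = 4.33e-05). Pfkfb3 ranged from 2.32 to 14.1 RPM (median 9.61) without and 2.48 to 11.3 RPM (median 6.70) with engagement (-0.38 ± 0.12, adjusted p = 0.0142). The Pfkfb3 call was not reached with TMM factors (adjusted p = 0.0805), whereas those of both kinase subunits were. Further down, Aldoa ranged from 437 to 591 RPM (median 540.2) without and 365 to 495 RPM (median 401) with engagement (-0.35 ± 0.041, adjusted p = 7.08e-06). Gapdh ranged from 19.3 to 43.1 RPM (median 34.1) without and 15.3 to 41.6 RPM (median 25.3) with engagement (-0.34 ± 0.068, adjusted p = 0.000690). Eno1 ranged from 185 to 337 RPM (median 295) without and 169.6 to 298 RPM (median 227) with engagement (-0.30 ± 0.052, adjusted p = 0.000217). Pgk1, Pgam1, Pfkm and Aldoc did not pass, with differences of -0.13, -0.18, -0.15 and 0.11. When each of 18 libraries was left out in turn, Pgk1 was called in 3 fits and Pgam1 in 1. The Pgam1 difference then ran from -0.34 to -0.018, and its 2 unengaged libraries at 10 ng/ml had 29.0 and 72.5 RPM.

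At the end of the pathway, Pkm2 ranged from 325 to 623 RPM (median 490.2) without and 272 to 535 RPM (median 427) with engagement (-0.29 ± 0.058, adjusted p = 0.000608). Ldha ranged from 583 to 1355 RPM (median 1269) without and 513 to 1204 RPM (median 1092) with engagement (-0.27 ± 0.031, adjusted p = 7.08e-06). Ldhb did not pass (-0.0013). Of the exporters, Slc16a1 ranged from 13.5 to 61.4 RPM (median 56.2) without and 12.4 to 44.97 RPM (median 36.3) with engagement (-0.37 ± 0.060, adjusted p = 0.000127). Slc16a3 ranged from 8.93 to 23.8 RPM (median 19.1) without and 5.53 to 16.1 RPM (median 13.3) with engagement (-0.57 ± 0.087, adjusted p = 7.44e-05). Both exporters, called on the mean over the 4 doses, were lower with engagement at each of them. Pdk1 ranged from 8.27 to 11.5 RPM (median 9.31) without and 5.73 to 11.06 RPM (median 8.82) with engagement and did not pass (adjusted p = 0.138), and neither did Pdha1 and Pdhb (-0.034 and -0.035).

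In the pentose phosphate pathway 5 of 8 members were lower with engagement, beside 41.2% of all genes. G6pdx was the only one of them called lower with TMM factors, where 14.9% of all genes were lower. G6pdx ranged from 39.3 to 53.8 RPM (median 47.5) without and 30.3 to 43.8 RPM (median 38.9) with engagement (-0.30 ± 0.059, adjusted p = 0.000690). Pgd ranged from 43.3 to 84.1 RPM (median 70.5) without and 37.6 to 78.4 RPM (median 53.8) with engagement (-0.25 ± 0.079, adjusted p = 0.0142). Tkt ranged from 144 to 280.5 RPM (median 229) without and 121 to 263 RPM (median 192) with engagement (-0.25 ± 0.061, adjusted p = 0.00324). With TMM factors the adjusted p of Pgd was 0.208 and that of Tkt 0.129. Rpe ranged from 35.3 to 53.0 RPM (median 49.5) without and 34.1 to 43.3 RPM (median 39.0) with engagement (-0.27 ± 0.057, adjusted p = 0.000990; 0.0556 with TMM factors). Rpia had a difference of -0.32 ± 0.093 (adjusted p = 0.0101; 0.144 with TMM factors) and is described by dose below. Prps1, Taldo1 and Pgls did not pass (-0.0032, 0.023 and -0.067), but Prps1 and Taldo1 were higher with engagement under TMM factors (0.14 with adjusted p = 0.0309, and 0.16 with adjusted p = 0.00547).

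Dose by dose, the calls with library totals were most frequent at 100 ng/ml. There 20 members were lower (37.3% of all genes), against 0 at 10 ng/ml (0.705%; 5 members at an unadjusted p under 0.05), 13 at 1000 ng/ml (19.4%) and 2 at 10000 ng/ml, Aldoa and Slc16a1 (2.58%). Without stimulus 7 were lower: Aldoa, Eno1, Hk1, Pfkl, Pfkp, Pkm2 and Slc16a3 (13.6%). No member was higher at any dose, against 0.763%, 0.0489%, 1.91%, 3.3% and 5.89% of all genes from 0 to 10000 ng/ml. With TMM factors this order was not kept: the counts were 0 at 0 ng/ml (0.352% of all genes lower and 1.49% higher) and at 10 ng/ml (0.00979% and 0.0196%), 5 lower and 3 higher at 100 ng/ml (7.92% and 8.7%), 6 and 1 at 1000 ng/ml (7.67% and 8.91%), and 8 and 0 at 10000 ng/ml (7.02% and 5.22%). Called both ways were Pfkl, Pfkp, Rpia, Slc16a3 and Slc2a1 at 100 ng/ml, Aldoa, Hk2, Pfkl, Pfkp, Pkm2 and Slc2a1 at 1000 ng/ml, and Aldoa and Slc16a1 at 10000 ng/ml. At 1000 ng/ml Hk2 had 28.3 and 31.6 RPM without and 14.3 and 16.4 RPM with engagement (-0.92 ± 0.22, adjusted p = 0.00696). At 10000 ng/ml Slc16a1 had 60.0, 57.7 and 61.4 RPM without and 42.2, 44.97 and 44.1 RPM with engagement (-0.44 ± 0.10, adjusted p = 0.0128), and in both cases the groups did not overlap. The difference under stimulation was not shown to depart from that at dose 0: 0 of 31 members passed that test (background 0% higher and 0.0196% lower; 0 members at an unadjusted p under 0.05).

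Rpia was the one of the 20 called members that was not lower with engagement at every dose. At 100 ng/ml it had 36.6 and 44.8 RPM without and 16.5 and 26.3 RPM with engagement (-0.93 ± 0.19, adjusted p = 0.00153). At 10000 ng/ml it had 42.7, 47.0 and 50.0 RPM without and 46.4, 71.4 and 73.5 RPM with engagement (0.42 ± 0.16, adjusted p = 0.109). The groups were apart at 100 ng/ml and overlapped at 10000 ng/ml. A test of the difference between these 2 effects, added after the values were seen, called 6 members lower at 100 than at 10000 ng/ml and 0 higher with library totals (26% and 1.03% of all genes). With TMM factors it called only Rpia lower (-0.99, adjusted p = 0.0104, background 8.04%) and Ldhb, Pgk1 and Pgls higher (background 8.15%).

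Under engagement the members still responded to stimulus, in libraries that share none with the unengaged response. Against their own 0 ng/ml group, 0 members passed at 10 ng/ml (0% of all genes; 1 member at an unadjusted p under 0.05), 6 were higher and 0 lower at 100 ng/ml (8.92% and 4.65% of all genes), 20 and 2 at 1000 ng/ml (30.5% and 24%), and 18 and 3 at 10000 ng/ml (38.4% and 26.4%). The summed level of members with engagement was 2654 ± 54.5 RPM (SD, n = 2) at 0, 2701 ± 156 (n = 2) at 10, 3141 ± 115 (n = 2) at 100, 3961 ± 94.5 (n = 2) at 1000 and 4129 ± 289 RPM (n = 3) at 10000 ng/ml. The percent of the rise above the unengaged 0 ng/ml mean that was lost with engagement, summed over the 4 doses, was 54.8% for Hk2, 44.99% for Pfkfb3, 39.9% for Slc16a1, 39.3% for Pgam1, 37.2% for Ldha and 3.92% for Prps1. Taken above the engaged 0 ng/ml mean instead, the loss was 46.3%, 28.8%, 34.3%, 20.53%, 23.8% and 11.8% in the same order. These percentages have no error estimate, and the differences between the genes were not tested. The 6 genes were chosen for their rise in unengaged libraries that also enter the percentages, which can overstate the loss.

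In the DO11.10 hybridoma the stimulus moved few members. At 10000 nM pOVA 1 of 28 was higher and 4 were lower, against 8.09% and 20.8% of 10094 genes, and the members' median of −0.19 was close to that of all genes, −0.18. The receptor response itself was strong: Il2, Egr2 and Nr4a1, early targets of the receptor, rose by 3.33, 6.503 and 5.33, beside 4.96, 5.55 and 3.91 in primary cells. Gapdh had 28.6 and 22.6 RPM at 0 nM and 37.3, 41.6 and 38.3 RPM at 10000 nM (0.60 ± 0.14, adjusted p = 0.00405). Hk1 went from 64.9 and 61.2 RPM to 41.1, 41.8 and 27.2 RPM (-0.79 ± 0.21, adjusted p = 0.0104). Gapdh higher and Hk1 lower were the only calls shared by library totals, TMM and quantile scaling (12.9% higher and 14.2% lower of all genes with quantile scaling). Under all 3, at most 8.09% of all genes can be higher and 14.2% lower. Hk2 went from 24.5 and 38.6 RPM to 19.7, 22.4 and 18.1 RPM (-0.60 ± 0.19, adjusted p = 0.0261), without overlap but with its 2 unstimulated libraries far apart. Pdha1 fell by 0.43 (SE 0.14, adjusted p = 0.0282) and Rpe by 0.26 (SE 0.091, adjusted p = 0.0418). With TMM factors G6pdx and Ldha were also higher, and only Hk1 and Hk2 lower (13.9% and 15.9% of all genes).

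Of the other members followed in both systems, Slc2a1 had 60.46 and 75.3 RPM at 0 nM and 54.5, 56.8 and 35.3 RPM at 10000 nM (adjusted p = 0.0988). Ldha had 707 and 678 RPM and then 1063, 827 and 823 RPM (adjusted p = 0.172). Pkm2 had 272 and 316 RPM and then 290.4, 343 and 267 RPM (adjusted p = 0.904). None of these 3 passed the test. Pdk1 had 24.3 and 19.5 RPM and then 18.1, 17.1 and 16.9 RPM (adjusted p = 0.0807). G6pdx had 174 and 151 RPM and then 191, 187 and 178 RPM (adjusted p = 0.161). Tkt had 428 and 466 RPM and then 475, 428 and 357 RPM (adjusted p = 0.589). These 3 did not pass either, and the summed level of members was 4495 ± 147 RPM (SD, n = 2) at 0 nM and 4507 ± 446 RPM (n = 3) at 10000 nM.

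The hybridoma calls changed with the fit and the libraries. With the replicate number as a block, 2 members were higher, G6pdx and Gapdh, and 2 lower, Hk1 and Pdha1 (8.64% and 17% of all genes). Without the second library at 0 nM, the one whose B lymphocyte and antigen-presenting cell markers summed to 1277 RPM, 0 members were higher and 1 lower, and without both second libraries at 0 nM 0 passed in either direction. Leaving out the third library at 10000 nM left 0 lower. In those 3 cases 6.3%, 7.35% and 6.67% of all genes were higher and 9.71%, 9.92% and 12.5% lower, for the 0 nM library, both 0 nM libraries and the 10000 nM library in turn. By dose, no member passed at 1, 10 or 100 nM (0%, 0.0297% and 2.84% of all genes higher, 0%, 0% and 3.19% lower; 4, 1 and 2 members were at an unadjusted p under 0.05), and at 1000 nM Gapdh was higher and Hk1, Hk2, Rpe, Slc2a1 and Taldo1 were lower (7.14% and 23.4%). With engagement, no member passed at 1, 10 or 100 nM (up to 0.733% of all genes higher and 0.693% lower, at 100 nM; 6, 0 and 3 members at an unadjusted p under 0.05). Hk1, Hk2, Pfkm and Taldo1 were lower at 1000 nM with engagement (5.18% higher and 14.5% lower), and at 10000 nM as well, where Gapdh was higher (7.05% and 19.3%).

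**Figure D4:**
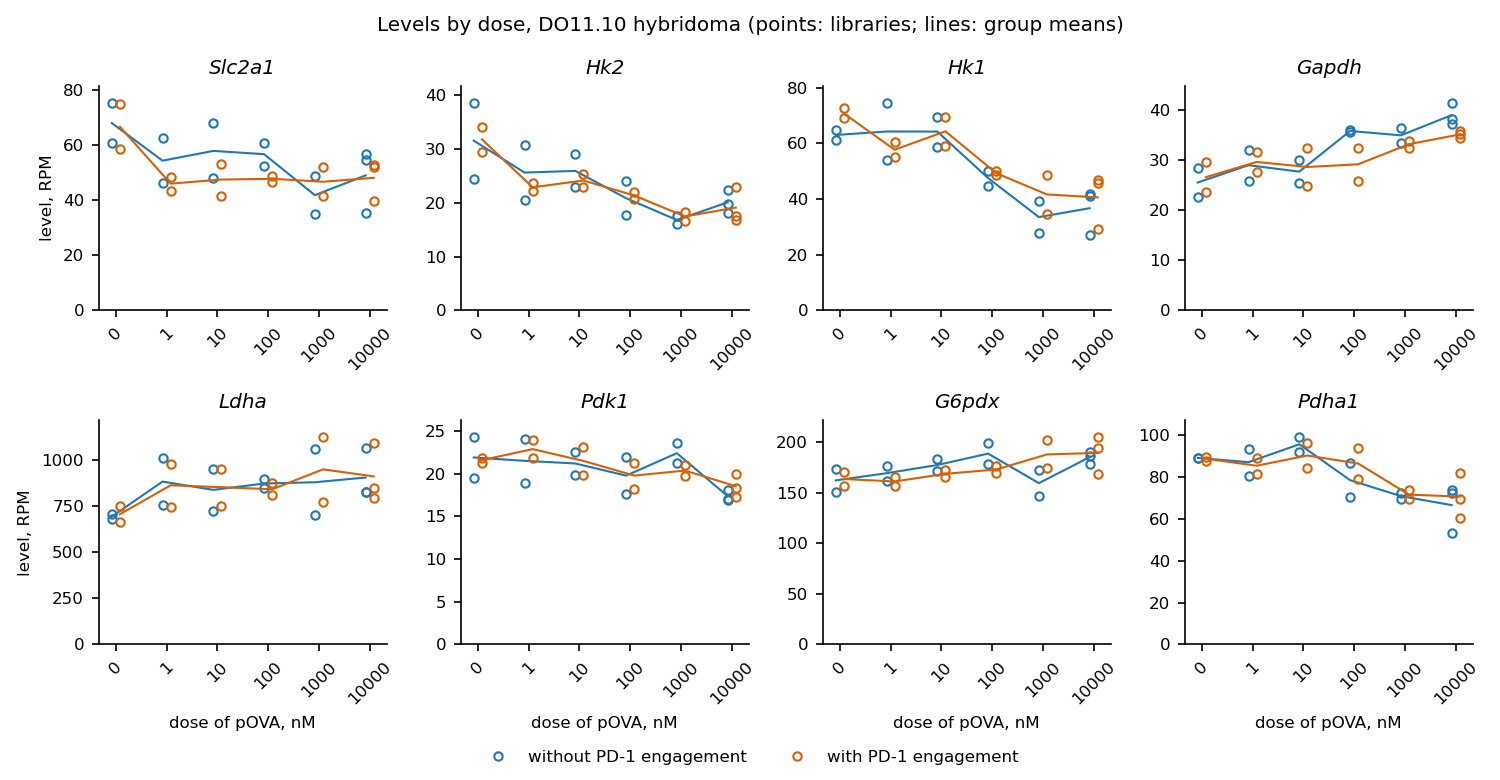
Levels of 8 members in the hybridoma (y axis, RPM) against the dose of pOVA (x axis, nM), without (blue) and with (orange) PD-1 engagement; circles are libraries and lines join group means. Hk1 is lower at 1000 and 10000 nM than at 0 nM and Gapdh is higher, while the colours overlap in most groups of every panel.

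PD-1 engagement gave 0 of 28 called members in the hybridoma, at the mean over 5 doses or at any single dose with limma. Over all genes 0.0594% were called higher and 0.872% lower at the mean, no member had an unadjusted p under 0.05 there, and edgeR (0.0693% and 0.793%) and DESeq2 (0.188% and 1.23%) gave 0 calls as well. At single doses from 1 to 10000 nM the shares of all genes were 0%, 0%, 0.00991%, 0.00991% and 0.0693% higher and 0%, 0.0396%, 0.485%, 0.0693% and 0.337% lower, with 0% at 0 nM, and 1 member in all these single-dose tests, at 1000 nM, was at an unadjusted p under 0.05. Between stimulation and dose 0 the difference passed in 0 members (0% of all genes), with 0 at an unadjusted p under 0.05. The members' differences at the mean ran from -0.11 in Slc2a1 to 0.072 in Hk1. In the same libraries Il2, Egr2 and Nr4a1 fell with engagement, by 0.72, 1.00 and 0.95 (log2), beside 0.63, 0.81 and 0.38 in primary cells. Same-numbered hybridoma libraries deviated together, and with the number as a block 2 members were higher with engagement at 1000 nM, Hk1 (0.30, adjusted p = 0.0200) and G6pdx (0.24, adjusted p = 0.0266), where 5.32% of all genes were called higher and 2.02% lower. Hk1 had 39.1 and 27.9 RPM without and 48.8 and 34.5 RPM with engagement there, and G6pdx 172 and 147 RPM and 202 and 174 RPM.

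The responses of both systems were compared in a joint fit of 9347 shared genes, as the log2 difference in primary cells minus that in the hybridoma. At the top dose 11 of 28 members responded more upward in primary cells and 1 more downward (22.3% and 17.6% of all genes). The largest gaps were in Hk2 (2.70 ± 0.29, adjusted p = 6.57e-09), Slc16a1 (2.23 ± 0.16, adjusted p = 3.72e-12), Slc2a1 (1.46 ± 0.25) and Prps1 (1.23 ± 0.15), and Ldhb was the one with the lower response (-0.63 ± 0.17, adjusted p = 0.00404). For PD-1 engagement 9 members had a more negative difference in primary cells and 0 a more positive one (12.2% and 0.899% of all genes), led by Hk2 (-0.66 ± 0.14, adjusted p = 0.00603) and Pfkl (-0.43 ± 0.14, adjusted p = 0.0415). The 9 include Slc2a3, whose clusters lie at different places in the 2 tables, so its gap does not compare 1 start, and 8 remain without it. With quantile scaling the PD-1 count was 2. The systems differ in cell type, strain, stimulus and dose unit, which cannot be told apart.

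Members with several start clusters did not always move as 1 unit. The clusters of Aldoa on mm9 chromosome 7 (minus strand) included a main one at chr7:133942645-133942699 and a single position 889 bases upstream, 133943561. In the hybridoma this upstream start rose from a mean of 1.35 RPM at 0 nM to 7.69 RPM at 10000 nM (1.89 ± 0.19, adjusted p = 3.65e-07), while the main cluster had means of 453 and 454 RPM. The ratio of the upstream start to the other Aldoa clusters rose by 1.87 ± 0.16 (adjusted p = 7.99e-08). Over all clusters tested, 12.2% had a higher and 11.2% a lower ratio. In primary cells the same position rose from 15.8 to 40.5 RPM (1.30 ± 0.12) and its ratio rose too (adjusted p = 9.08e-06, background 22.3% higher and 21.1% lower). A start 1378 bases downstream of the main hybridoma cluster did likewise in both systems, with differences of 0.81 ± 0.20 and 1.20 ± 0.12.

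In Ldha (mm9 chromosome 7, plus strand) nearly all tags, 99.4% in each table, lay in the main cluster at chr7:54101209-54101212. A cluster 450 bases downstream of it in the hybridoma went from 0.215 RPM at 0 nM to 6.76 RPM at 10000 nM (2.65 ± 0.21, adjusted p = 2.03e-08), where the main cluster did not pass (0.36 ± 0.20, adjusted p = 0.191). In primary cells it went from 1.35 to 8.36 RPM (1.99 ± 0.23), against 1.14 ± 0.060 for the main cluster. The downstream clusters of Pgk1 (846 bases) and of Eno1 (1052 bases) also rose in the hybridoma relative to their main clusters, with differences of 1.38 ± 0.25 and 1.29 ± 0.18. Hk1 has a second start on the minus strand of chromosome 10, 12492 bases downstream of its main hybridoma cluster, which held 34.2% of its tags in the hybridoma and 3.23% in primary cells. Its difference was -1.12 ± 0.25 against -0.59 ± 0.20 for the main cluster in the hybridoma, and -1.34 ± 0.22 against -0.33 ± 0.14 in primary cells, and in both the ratio fell (adjusted p = 0.00306 and 0.00184). Several of these minor starts are at a few RPM.

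**Figure D5:**
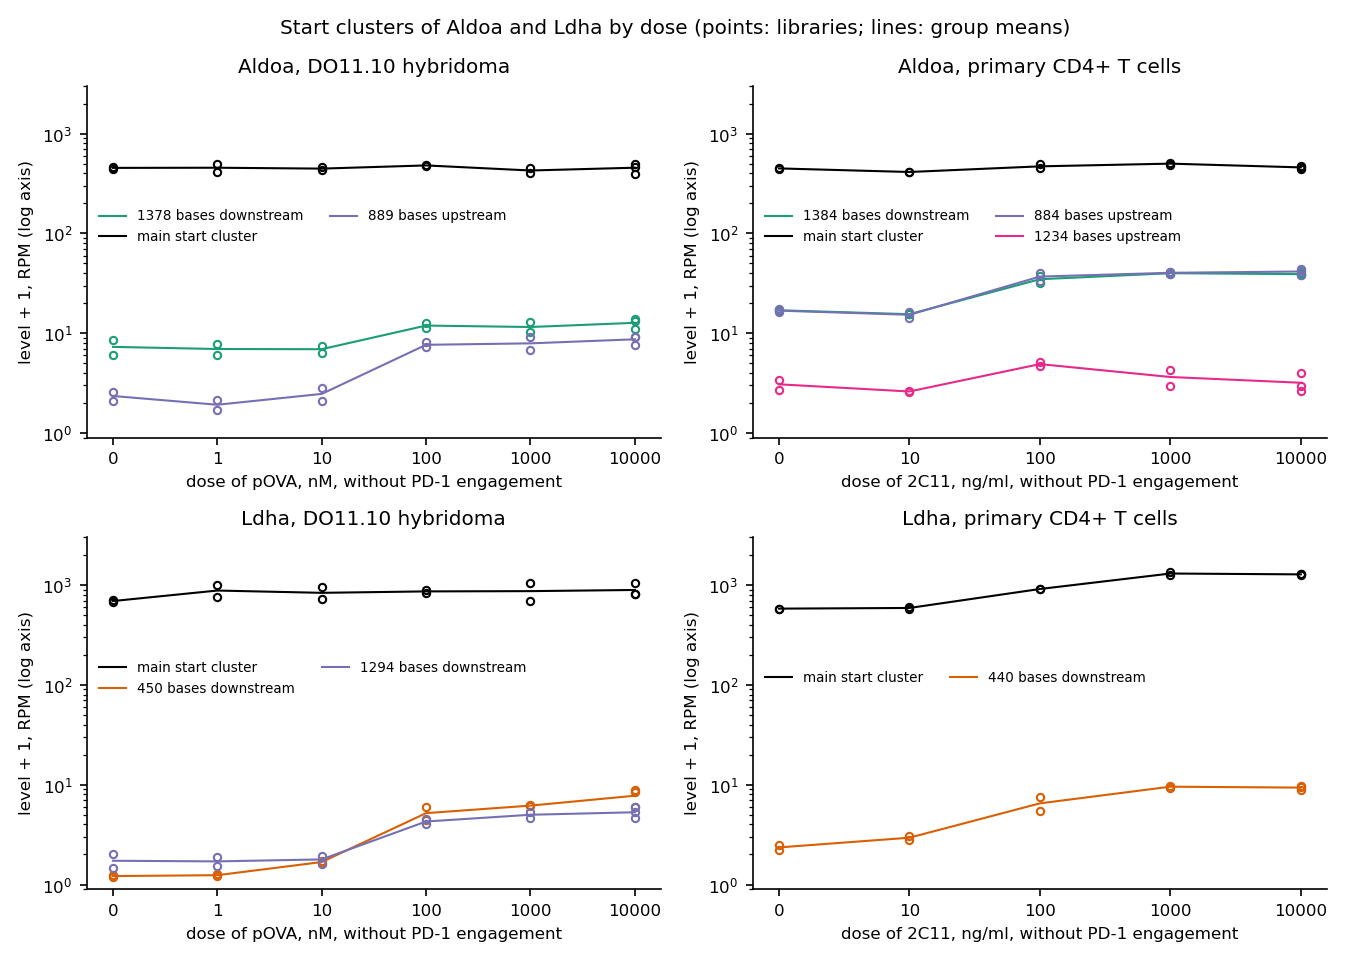
Levels of the start clusters of Aldoa (top) and Ldha (bottom) in libraries without PD-1 engagement (y axis, RPM + 1, log scale) by dose (x axis), in the hybridoma (left) and primary CD4+ T cells (right); circles are libraries, lines join group means, and distances are from the main cluster. The minor starts of both genes climb at 100 nM or 100 ng/ml and above, except the one 1234 bases upstream of Aldoa, while the main Aldoa cluster stays level in both systems.

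Other genes of the pathway, a list of 58 symbols, had 33 measured in the hybridoma and 35 in primary cells. In stimulated primary cells 12 rose and 10 fell, beside 27.5% and 40.1% of all genes. The kinase Pdk2 fell by 2.33 (adjusted p = 6.57e-10), a larger change than any in Pdk1, and the transporters Slc2a9 and Slc2a6 fell by 1.91 and 1.12. The monocarboxylate transporter Slc16a6 rose by 1.68, the ADP-dependent glucokinase Adpgk rose by 1.33, and Pgm2l1, which makes glucose-1,6-bisphosphate, fell by 0.97. Brp44l, a subunit of the mitochondrial pyruvate carrier, and Dlat and Dld of the pyruvate dehydrogenase complex, named after their values were seen, rose by 0.36, 0.34 and 0.26. Pdpr, which regulates the phosphatase of that complex, was among the 10 that fell, also with TMM factors. In the hybridoma 2 rose and 9 fell, beside 8.09% and 20.8% of all genes: Eno3, the muscle enolase, rose by 2.90 and Bpgm, bisphosphoglycerate mutase, by 2.32, whereas H6pd, Slc2a8, Prps2 and Pgp fell by 0.84, 0.78, 0.69 and 0.60.

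With engagement 16 of the 35 were lower in primary cells and 0 higher, a share near the 41.2% of all genes called lower (4.48% higher). Of these, 5 were also called with TMM factors, Bsg, Dlat, Eno2, Pgm2 and Slc16a6, where 14.9% of all genes were lower. Bsg, basigin, the chaperone that brings MCT1 and MCT4 to the membrane, had a difference of -0.31 (adjusted p = 1.38e-05). The other 15 ran from -0.51 in Pgp to -0.16 in Prpsap1. Pgp was not lower at every dose: at 10000 ng/ml it was higher with engagement (1.04, adjusted p = 0.0101), also with TMM factors (0.98, adjusted p = 0.0137). At the mean over doses, the 11 called with library totals alone were Pgp, H6pd, Pgm2l1, Pdp2, Pgm3, G6pc3, Gpd2, Pgm1, Adpgk, Pgam5 and Prpsap1. In the hybridoma Bpgm (-0.56, adjusted p = 0.000249) and Eno3 (-0.44, adjusted p = 0.0101), which had risen with stimulus, were the 2 of 33 that were lower with engagement (0.872% of all genes), with TMM factors as well.

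Of 14 regulators of the pathway, 3 rose and 6 fell in stimulated primary cells, beside 27.5% and 40.1% of all genes. Myc rose by 3.35 (adjusted p = 5.62e-14), and Txnip, which restrains glucose uptake, fell by 2.88 (adjusted p = 3.28e-14) with its relative Arrdc4 (fell by 1.19). Egln3, a prolyl hydroxylase of HIF-1α, rose by 1.00, while Egln2 and the HIF partner Arnt fell by 0.82 and 0.81. In the hybridoma Txnip, Egln3 and Arrdc4 fell by 1.30, 0.78 and 0.73, and Myc did not pass (0.32, adjusted p = 0.127). At 10000 nM 0 of 14 were higher with library totals and 3 with TMM factors (8.09% and 13.9% of all genes). At 1000 nM Hif1a was higher and Txnip lower with both scalings (7.14% and 23.4% with library totals). In engaged libraries, against their own 0 nM group, Hif1a was higher and Egln2 and Txnip lower both ways at 1000 nM (5.18% and 14.5%). At 10000 nM these were Hif1a and Myc higher and Arrdc4, Egln2 and Txnip lower (7.05% and 19.3%). With engagement Txnip was higher in primary cells (0.25, adjusted p = 0.00131) and 9 regulators were lower, beside 41.2% of all genes (14.9% with TMM factors). Of these, Egln3 (-0.78), Egln1 (-0.55), Hif1a (-0.36), Keap1 (-0.31), Myc (-0.29) and Mlx (-0.28) were called with TMM factors as well, and Vhl (-0.30), Arnt (-0.18) and Nfe2l2 (-0.15) were not. In the hybridoma 0 of 14 passed for engagement.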

How the data were processed

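The values are RPM per cluster of transcript starts and library, scaled by the authors before they were deposited, as the files' values show: low values are whole multiples of 1 tag's worth, so counts of tags were recovered (100% of low values within 0.1 tag of a whole number) and used for the edgeR and DESeq2 alternatives. BWA 0.7.12, HISAT2 2.0.5 and mm9 are named in the submitters' processing notes, with no roles given, and the sources used here do not say how clusters were called and named. Clusters of 1 symbol were summed per gene. Left out were clusters with no symbol (4477 of 18025 in the hybridoma table and 3643 of 17272 in the primary cell table) or several (356 and 371).

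Each table was fitted separately with limma 3.58.1 (R 4.3.3, variance trend) on log2(RPM + 1), with 1 mean per group, for genes at 1 RPM or more in at least 2 libraries. P-values were adjusted over all genes tested (Benjamini-Hochberg), and under 0.05 passed. Differences are on this log2 scale, which understates changes of low genes. The systems were compared in 1 fit over the genes of both tables, as differences within each table. edgeR 4.0.16 called 1357 genes higher and 1710 lower for hybridoma stimulation, 7 and 80 for engagement, and in primary cells 3519 and 3542, then 1506 and 1551. DESeq2 was version 1.42.0. The fits were tested on simulated data.

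Members and gene lists were chosen with earlier results of these data known. Library values are given for members at least 2-fold changed by stimulation or passing for PD-1, and for Slc2a1, Hk2, Ldha, Pkm2, Gapdh, Pdk1, G6pdx and Tkt. Of other pathway genes and regulators, the 6 with the largest called change per system and any called for PD-1 could be named. Same-numbered libraries without and with engagement deviated together in the hybridoma (correlations of deviations from the group means over genes 0.256 to 0.759), a pairing taken from the data, and did so less in primary cells (0.0129 to 0.255), whose numbers were not taken as pairs.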

Additional observations from a re-analysis of the deposited data

Results flagged for a closer look

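Members whose stimulation or PD-1 difference was not the same in both systems, by limma's joint fit over the genes of both tables (adjusted p under 0.05), are given here as the primary cell log2 difference minus the hybridoma log2 difference. The stimuli, dose units and cells differed, and the joint fit shares 1 estimate of the spread.

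For stimulation at 10000, the gap was widest for Hk2, the inducible hexokinase (2.70, 2.10 in primary cells and −0.60 in the hybridoma), and for Slc16a1, a lactate and pyruvate carrier (2.23, from 2.02 and −0.21). The glucose transporter Slc2a1 followed at 1.46 (0.97 and −0.49). Prps1, which makes the ribose-phosphate donor of nucleotide synthesis, stood at 1.23. Rpia, which makes ribose-5-phosphate, stood at 1.07, Pgd, a pentose phosphate dehydrogenase, at 1.07, Pfkl, the liver-type phosphofructokinase, at 1.07, and Pgam1, a phosphoglycerate mutase, at 1.06. Smaller gaps were 0.82 for the transketolase Tkt, 0.77 for the lactate dehydrogenase subunit Ldha and 0.37 for the epimerase Rpe. The sign was opposite for Ldhb, the other dehydrogenase subunit, at −0.63 (−0.50 in primary cells and 0.13 in the hybridoma).

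For PD-1 engagement averaged over stimulated doses, all 9 gaps were negative, that is, more negative in primary cells. They were −0.66 for Hk2, −0.43 for Pfkl, −0.40 for the constitutive hexokinase Hk1 and −0.39 for Slc16a1. The others were −0.30 for the pyruvate kinase Pkm2, −0.30 for G6pdx, which opens the pentose phosphate pathway, −0.29 for the aldolase Aldoa and −0.27 for Rpe. The joint fit also gave −0.55 for the glucose transporter Slc2a3, whose start clusters lie at different places in the 2 tables, so this value does not compare 1 start. With quantile scaling 2 members passed in place of 9.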

How the results depend on the processing

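In the hybridoma, 1 member was higher and 4 lower at 10000 nM. The counts were 3 and 2 with TMM factors, with edgeR and with DESeq2, 2 and 2 with the replicate block, 0 and 0 without both second libraries at 0 nM (chosen after seeing the data), and 0 to 1 and 0 to 3 when each library was left out. Hybridoma PD-1 counts at the mean over doses were 0 and 0 under every setting run, though the replicate block gave 2 higher at 1000 nM. In primary cells, stimulation gave 17 higher and 5 lower, 15 to 18 and 4 to 5 with each library left out, and 17 to 22 and 4 to 6 otherwise. PD-1 engagement gave 0 higher and 20 lower, 4 and 12 with quantile scaling, 2 and 14 with TMM factors and with DESeq2, 2 and 15 with edgeR, 0 and 26 with the marker covariate, and 0 and 19 to 22 with each library left out. Between systems, the 1 member with a lower stimulation response in primary cells became 2 with a pseudocount of 5 and 3 with quantile scaling, and the 9 of PD-1 engagement became 2 with quantile scaling. The PD-1 difference changed sign for Ldhb (−0.0013, and 0.17 with quantile scaling), Pdha1 (0.14 with quantile scaling), Prps1 (−0.0032, and 0.17 with quantile scaling, 0.14 with TMM factors, edgeR and DESeq2) and Taldo1 (0.023, and −0.14 with the marker covariate), none of which passed in the fit reported. The cause was not tested. Over all genes, PD-1 engagement in primary cells gave 458 higher and 4205 lower, but 1430 and 1527 with TMM factors, 1440 and 1301 with quantile scaling and 1322 and 1274 with DESeq2. Hybridoma stimulation gave 817 and 2095, but 1400 and 1608, 1298 and 1432, and 1479 and 1561. The replicate block, where the pairing came from the data, moved hybridoma engagement from 0.0594% of all genes higher and 0.872% lower to 1.99% and 4.52%, with 0 members. In primary cells, where the numbers were not taken as pairs, it moved the count of members lower from 20 to 21 (43.3% of all genes). By dose the block gave 11 lower at 0, 1 at 10, 21 at 100, 17 at 1000 and 2 at 10000 ng/ml. The shares of all genes lower were 17.9%, 1.51%, 40%, 22.2% and 3.15%. It also gave 1 member higher at 10000 ng/ml (7.35%). Counting clusters of several symbols for each symbol was not run, since those clusters name none. Few tags limit Pfkm, Aldoc, Pfkfb3 and Slc2a3, each under 20 RPM in every library.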
